A study of Mus musculus with 16 samples.

Results

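The genes described here make cholesterol, or control and follow its supply through SREBP2, the sterol regulatory element-binding protein encoded by Srebf2. They came from a list of 28 genes, matched by current or older symbol to array rows (transcript clusters) annotated to exactly 1 of them, with the row of the highest mean where a gene had several. The rule found 27 of the 28 among 18820 genes with such a row, and Acat2 was not analysed here. All 27 were over an intensity of 20 on all 16 arrays and so stood among the 14275 genes tested. Values are log2 intensities, on which a difference of 1 is a 2-fold change, and are compared within a gene only.

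SREBP2 is made as a membrane protein of the endoplasmic reticulum, where it is bound to Scap, the escort protein that carries it to the Golgi apparatus when membrane sterols are low. There it is cut, and the released part enters the nucleus and switches on nearly every enzyme from acetyl-CoA to cholesterol. Insig1 and Insig2 encode the proteins that hold Scap back when sterols are abundant. Insig1 is itself a target of the pathway, whereas Insig2 is not, and in mouse liver an Insig2 transcript is known to rise on fasting and to be lowered by insulin.

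The livers came from 16 male C57BL/6J mice aged 12 months, 1 mouse per array, which had been on their diets since 9 weeks of age. CR mice received daily portions with 30% less energy than control mice ate. INT mice (ID in the labels) alternated by week between the MF diet ad libitum and a restriction of 40%, and were killed in an ad libitum week. MF mice ate AIN-93W-MF, with 25% of energy as fat, and C mice ate the AIN-93W control diet, both ad libitum. After a 4 h fast the mice received by gavage either Wy (pirinixic acid, 160 mg/kg), an agonist of the fatty acid receptor PPARα, or vehicle alone (mock), and were fasted for 6 h more. Each diet held 4 livers, a Wy and a mock liver of a high and of a low body weight mouse, so that Wy and mock livers formed 8 pairs matched by diet and body weight. Since CR mice ate portions, restriction and the time since the last meal cannot be told apart, and with 2 mice per diet and treatment the number of arrays limited the precision of every comparison.

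The 16 arrays were alike in scale, with medians of 5.53 to 5.59 and correlations of 0.982 to 0.994 with each other. Of the 5 hepatocyte markers measured, among them Alb, Ttr, Apoa1 and Cps1, none was under 11.68 on any array. The 2 high INT arrays carried a different array code in the labels than the other 14, so within INT the code and the body weight class cannot be told apart. In whole liver, fewer cells of a type and less RNA per cell cannot be told apart either.

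Since the synthesis genes are known to share control through their promoters, RefSeq sequences (GRCm38.p6) from 250 bases before to 50 after each start were searched on both strands, and 21 of the 27 genes had such a window. SREBP acts on these promoters together with NF-Y, which binds CCAAT. The CCAAT box was found in 20 of 21 genes, against 41.1% of all 27025 genes with a window, and the Sp1 box GGGCGG in 19 of 21, against 38.2%. The E-box CACGTG was found in 5 of 21 (8.09% of all genes). The sterol regulatory element as TCACNCCAC was in 1 of 21 (1.44%) and its shorter core CACNCCAC, which the longer form contains, in 2 of 21 (7.12%). The PPAR element, AGGTCA repeated with any base between the copies, was in 0 of 21 (0.0481% of all genes). A match is a run of letters, not a measured site.

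The stretches just before the start are shown for 8 genes that the results turn on, 7 that were higher in CR livers, among them Hsd17b7, which also rose under Wy, and Insig2, which rose under Wy. Capitals mark CCAAT boxes and, in Hmgcs1 and Insig1, the sterol element core, on either strand. They lie, from the first base printed to the base before the start, as Hmgcs1 at chr13:119690171-119690350 on the plus strand, Mvd at chr8:122443423-122443522 on the minus strand, Lss at chr10:76531505-76531604 on the plus strand, Cyp51 at chr5:4104698-4104797 on the minus strand, Msmo1 at chr8:64733579-64733743 on the minus strand, Insig1 at chr5:28071192-28071411 on the plus strand, Hsd17b7 at chr1:169969206-169969375 on the minus strand and Insig2 at chr1:121332590-121332729 on the minus strand. For Insig2, which has several RefSeq starts, the one whose window held CCAAT boxes is shown.
Hmgcs1: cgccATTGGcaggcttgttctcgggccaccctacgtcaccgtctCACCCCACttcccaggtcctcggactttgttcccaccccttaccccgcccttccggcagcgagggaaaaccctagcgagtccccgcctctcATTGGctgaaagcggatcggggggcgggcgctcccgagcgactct
Mvd: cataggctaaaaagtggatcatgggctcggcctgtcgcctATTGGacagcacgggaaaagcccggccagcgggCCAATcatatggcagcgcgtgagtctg
Lss: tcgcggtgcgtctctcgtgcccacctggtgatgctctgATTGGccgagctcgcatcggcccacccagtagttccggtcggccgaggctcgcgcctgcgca
Cyp51: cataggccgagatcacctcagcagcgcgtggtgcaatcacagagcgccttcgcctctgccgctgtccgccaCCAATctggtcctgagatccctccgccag
Msmo1: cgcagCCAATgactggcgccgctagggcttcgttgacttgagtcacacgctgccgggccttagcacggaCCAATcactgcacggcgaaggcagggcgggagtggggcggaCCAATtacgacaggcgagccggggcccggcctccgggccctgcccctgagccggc
Insig1: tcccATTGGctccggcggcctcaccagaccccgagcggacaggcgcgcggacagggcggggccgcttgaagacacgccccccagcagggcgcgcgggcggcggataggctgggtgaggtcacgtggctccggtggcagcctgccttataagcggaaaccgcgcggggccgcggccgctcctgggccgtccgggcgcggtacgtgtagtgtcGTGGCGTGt
Hsd17b7: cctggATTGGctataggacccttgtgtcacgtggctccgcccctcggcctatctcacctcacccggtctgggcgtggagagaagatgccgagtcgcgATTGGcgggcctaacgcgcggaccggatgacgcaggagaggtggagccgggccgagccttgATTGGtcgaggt
Insig2: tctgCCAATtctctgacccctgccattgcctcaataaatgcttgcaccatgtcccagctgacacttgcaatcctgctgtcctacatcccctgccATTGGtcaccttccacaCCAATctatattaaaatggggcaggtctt

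CR livers held the highest values of most of these genes. The highest of the 16 arrays was a CR array for 20 of the 27 genes, and the lowest was never one, being a C array for 12 genes, an MF array for 8 and an INT array for 7. The median deviation of the 27 genes from their own means was 0.30 to 0.63 on the 4 CR arrays, -0.26 to 0.05 on the INT arrays, -0.42 to -0.08 on the MF arrays and -0.34 to 0.08 on the C arrays. In 9 genes all 4 CR arrays were above all 12 others (1.9% of all genes tested). These were Insig1, Pmvk, Mvd, Fdps, Lss, Lbr, Nsdhl, Sc5d and Dhcr7.

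**Figure D1:**
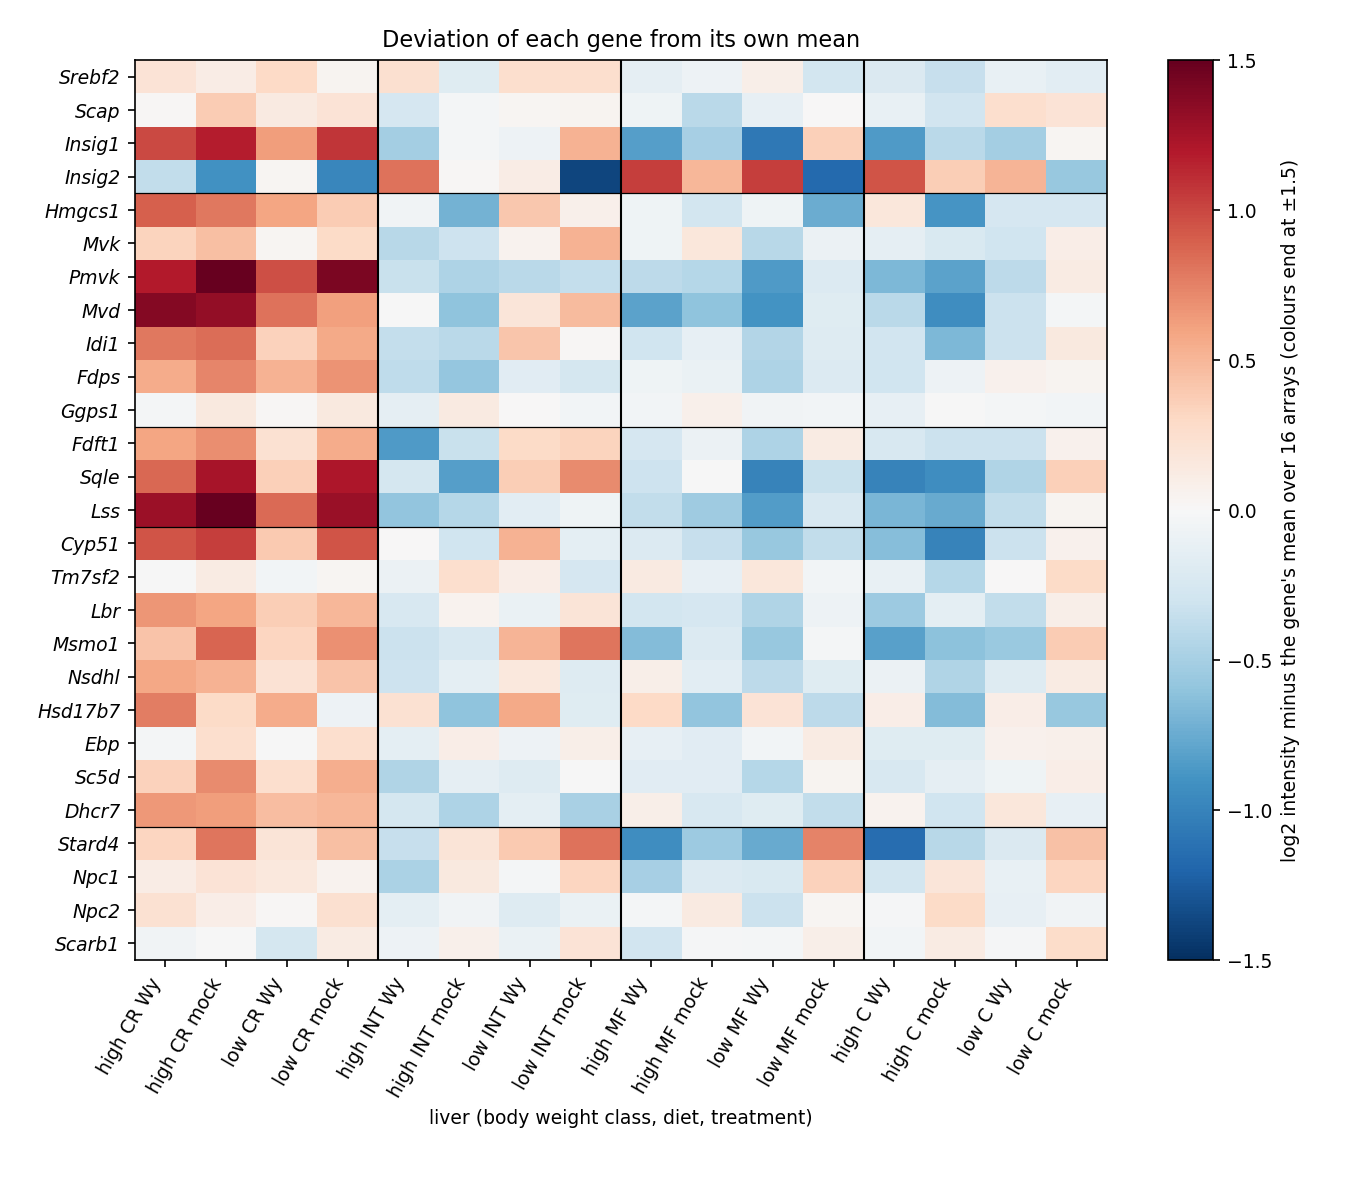
Log2 intensity of each of the 27 genes (rows, in groups by role) minus its own mean, on the 16 liver arrays (columns, by diet, body weight class and treatment), with red above and blue below the mean and colours ending at ±1.5. Most rows are red across the 4 CR arrays, at median deviations of 0.30 to 0.63, while Insig2 is blue in the CR mock livers and red in Wy livers of INT, MF and C mice.

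The first comparison asked what lasting calorie restriction did to the pathway relative to the control diet. Of the 27 genes 18 rose in CR livers, against 4.54% of all genes tested, and 0 fell, against 5.98%. The largest were Pmvk (phosphomevalonate kinase), 3.3-fold higher, and Lss (lanosterol synthase), 3.23-fold higher. The calls ran along the whole route, with 5 of 7 genes between mevalonate and the prenyl diphosphates, 3 of 3 from squalene to lanosterol, 7 of 9 from lanosterol to cholesterol, 2 of 4 regulators and 1 of 4 transport genes. The median difference was 0.64 over the 27 genes and -0.01 over all genes tested. In 15 genes every CR array was above every C array, which held for 5.7% of all genes.

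Among the regulators Srebf2 itself had the smallest of the 18 rises. In the order high Wy, low Wy, high mock and low mock, which is kept for the values below, Srebf2 was at 9.34, 9.43, 9.24 and 9.18 in CR livers, 9.37, 9.39, 8.95 and 9.38 in INT livers, 9.00, 9.22, 9.06 and 8.86 in MF livers and 8.92, 9.02, 8.79 and 8.98 in C livers. All CR values were above all C values, by 0.37 ± 0.08 (log2 ± SE, limma adjusted p = 0.0128). Insig1, the sterol-dependent brake, was at 11.87, 11.50, 12.05 and 11.95 in CR livers, 10.37, 10.80, 10.84 and 11.40 in INT livers, 10.05, 9.80, 10.38 and 11.23 in MF livers and 10.02, 10.36, 10.47 and 10.91 in C livers. The 4 CR livers were above all 12 others, and Insig1 rose by 1.40 ± 0.18 over C (2.64-fold, adjusted p = 0.000455).

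Insig2 and Scap gave no call against C. Insig2 was at 11.20, 11.59, 10.66 and 10.59 in CR livers, 12.38, 11.68, 11.58 and 10.19 in INT livers, 12.60, 12.60, 12.06 and 10.40 in MF livers and 12.51, 12.07, 11.93 and 11.00 in C livers. The values spread over more than 2 log2 units within MF and INT, the CR mean lay 0.86 ± 0.27 below C, and the groups overlapped (adjusted p = 0.0608). In 4 of 4 livers matched by treatment and weight class CR was below C, with differences of -1.30 to -0.40. Scap was at 9.60, 9.71, 9.96 and 9.78 in CR livers, 9.33, 9.61, 9.55 and 9.62 in INT livers, 9.51, 9.46, 9.18 and 9.58 in MF livers and 9.47, 9.83, 9.29 and 9.78 in C livers. CR and C livers overlapped (difference 0.17 ± 0.11, adjusted p = 0.368), and a second, dimmer Scap cluster (mean 4.91) was not used.

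**Figure D2:**
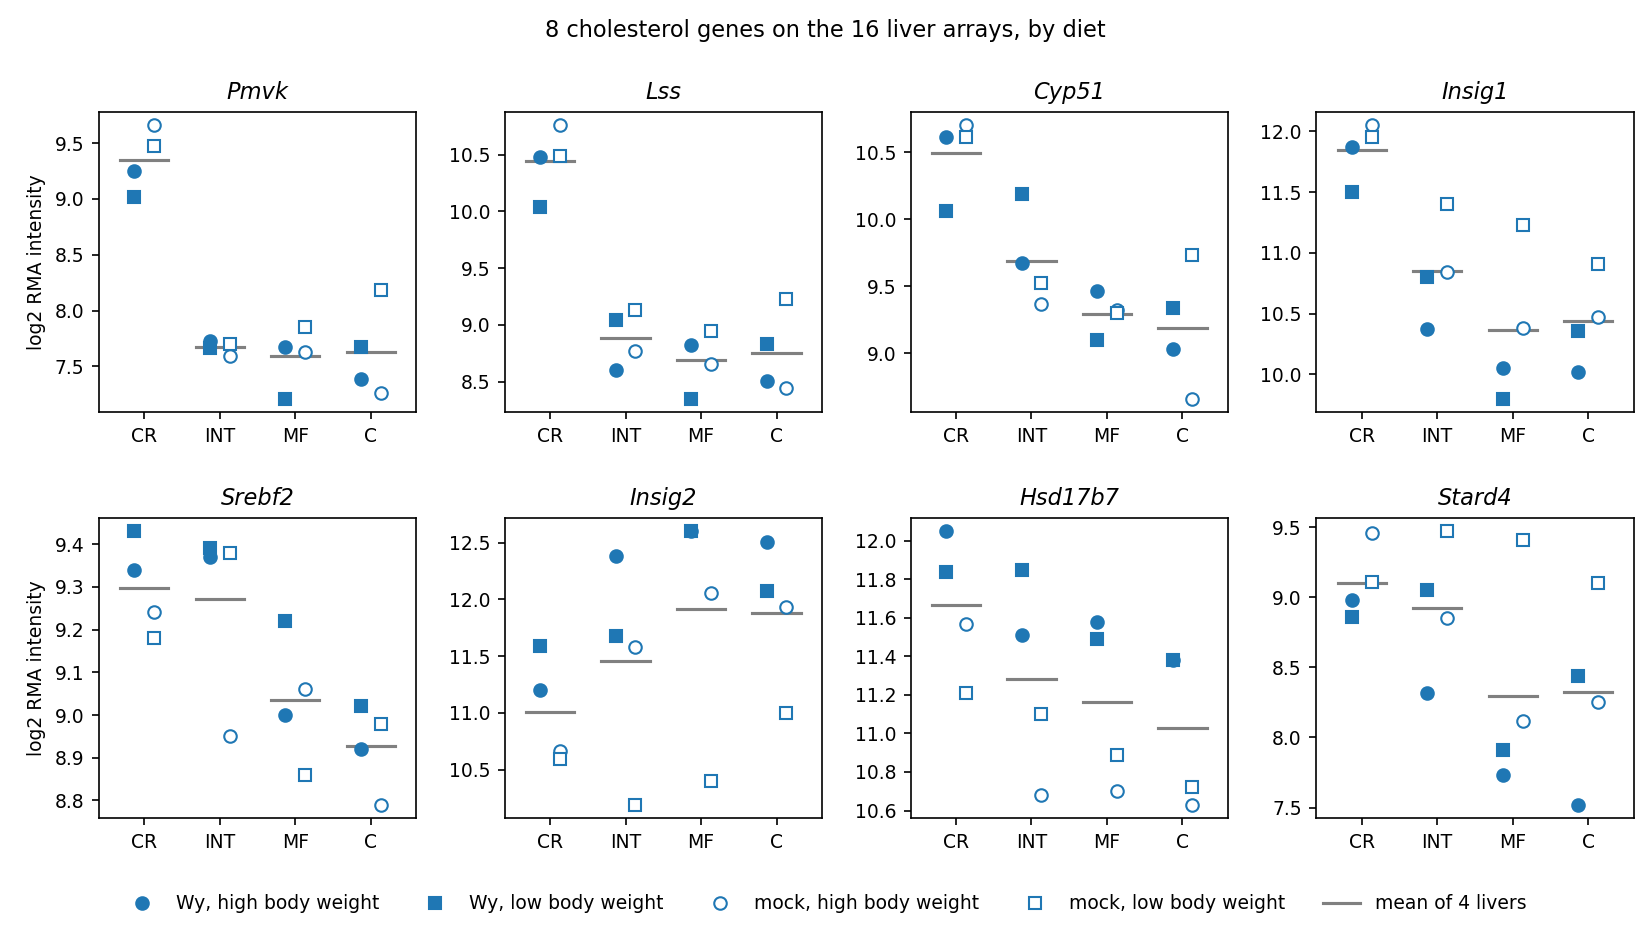
Log2 intensity of 8 genes in each liver by diet (CR, INT, MF, C), with filled symbols for Wy, open for mock, circles for high and squares for low body weight, and a grey line at the mean of 4 livers. Pmvk, Lss and Insig1 show 4 CR points above all others, Srebf2 shows CR and most INT points above C, and Insig2 and Hsd17b7 separate Wy from mock within each diet.

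The early enzymes turn acetyl-CoA into prenyl units. Pmvk was at 9.25, 9.02, 9.66 and 9.47 in CR livers, 7.73, 7.66, 7.59 and 7.70 in INT livers, 7.67, 7.21, 7.63 and 7.85 in MF livers and 7.39, 7.67, 7.26 and 8.18 in C livers. The lowest CR liver was at 9.02 and the highest other liver, low C mock, at 8.18. The difference from C was 1.72 ± 0.17 (adjusted p = 0.000119).

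Mvd, which removes the carboxyl group of mevalonate diphosphate, was at 8.21, 7.65, 8.16 and 7.45 in CR livers, 6.83, 7.02, 6.23 and 7.31 in INT livers, 6.04, 5.94, 6.23 and 6.66 in MF livers and 6.43, 6.52, 5.91 and 6.81 in C livers. All CR values were above all others, and the difference from C was 1.45 ± 0.25 (2.73-fold, adjusted p = 0.00276). Hmgcs1, the cytosolic HMG-CoA synthase at the head of the route, averaged 11.04 ± 0.23 in CR and 10.08 ± 0.43 in C livers (SD, n = 4 each), a rise of 0.97 ± 0.20 (adjusted p = 0.00756). Idi1, the isomerase of the prenyl units, rose by 0.92 ± 0.19, read from the brighter of its 2 clusters. Fdps, which joins them to farnesyl diphosphate, rose by 0.69 ± 0.11. Mvk (mevalonate kinase) differed by 0.42 ± 0.16 (adjusted p = 0.125) and Ggps1, the synthase of the side branch to geranylgeranyl groups, by 0.12 ± 0.06 (adjusted p = 0.222). Neither was called.

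The next 3 enzymes commit carbon to sterols. Lss, which closes the rings, was at 10.48, 10.04, 10.76 and 10.49 in CR livers, 8.60, 9.04, 8.77 and 9.13 in INT livers, 8.82, 8.35, 8.66 and 8.95 in MF livers and 8.51, 8.83, 8.44 and 9.23 in C livers. The lowest CR liver was at 10.04 and the highest other liver, low C mock, at 9.23, with a rise over C of 1.69 ± 0.18 (adjusted p = 0.000159). Sqle, the epoxidase before it, was at 10.02, 9.52, 10.39 and 10.37 in CR livers, 8.89, 9.53, 8.33 and 9.87 in INT livers, 8.85, 8.16, 9.15 and 8.82 in MF livers and 8.16, 8.71, 8.23 and 9.51 in C livers. CR and C livers did not overlap, although the low CR Wy liver, at 9.52, was next to the low C mock liver, at 9.51. The rise was 1.42 ± 0.32 (2.68-fold, adjusted p = 0.0124). Fdft1, the squalene synthase, averaged 11.70 ± 0.20 in CR and 10.98 ± 0.18 in C livers, a rise of 0.72 ± 0.19 (adjusted p = 0.0286).

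Of the 9 enzymes that convert lanosterol to cholesterol, 7 rose. Cyp51, the lanosterol demethylase, was at 10.61, 10.06, 10.70 and 10.61 in CR livers, 9.67, 10.19, 9.37 and 9.52 in INT livers, 9.46, 9.10, 9.32 and 9.30 in MF livers and 9.03, 9.34, 8.66 and 9.73 in C livers. All CR livers were above all C livers, by 1.31 ± 0.22 (2.47-fold, adjusted p = 0.00237). Msmo1, the oxidase that begins removal of the methyl pair, was at 11.06, 10.95, 11.51 and 11.32 in CR livers, 10.31, 11.14, 10.39 and 11.44 in INT livers, 9.98, 10.07, 10.43 and 10.60 in MF livers and 9.82, 10.08, 10.02 and 11.01 in C livers. Here the low C mock liver, at 11.01, overlapped the CR group, and the rise was 0.98 ± 0.19 (adjusted p = 0.00583). Its partners in that removal, Nsdhl and Hsd17b7, rose by 0.59 ± 0.14 and 0.64 ± 0.11. The desaturase Sc5d rose by 0.55 ± 0.09, and Dhcr7, the reductase that yields cholesterol, by 0.61 ± 0.09.

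Lbr and Tm7sf2 encode reductases of the same step. Lbr, which is also the lamin B receptor of the nuclear envelope, rose by 0.77 ± 0.10 (adjusted p = 0.000473), while Tm7sf2 averaged 10.85 ± 0.07 in CR and 10.76 ± 0.30 in C livers (difference 0.09 ± 0.14, adjusted p = 0.755). The isomerase Ebp differed by 0.17 ± 0.08 (adjusted p = 0.178). Differences between genes were not tested.

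Transport genes gave a single call. Stard4, a soluble sterol carrier, was at 8.98, 8.86, 9.46 and 9.11 in CR livers, 8.32, 9.05, 8.85 and 9.47 in INT livers, 7.73, 7.91, 8.12 and 9.41 in MF livers and 7.52, 8.44, 8.25 and 9.10 in C livers. The low C mock liver, at 9.10, lay inside the CR range, and the rise over C was 0.78 ± 0.22 (adjusted p = 0.0405). That call was lost with the pair as a random block (adjusted p = 0.0521), with no body weight term (0.112) and without the arrays of the other code (0.0608), and its call against MF was lost with no body weight term (0.0888). Npc2, which hands cholesterol to Npc1 in the lysosome, was at 8.45, 8.24, 8.32 and 8.46 in CR livers, 8.07, 8.02, 8.16 and 8.12 in INT livers, 8.19, 7.90, 8.35 and 8.25 in MF livers and 8.20, 8.09, 8.50 and 8.16 in C livers. CR and C livers overlapped (0.13 ± 0.08, adjusted p = 0.318). Npc1 differed by 0.10 ± 0.12 (adjusted p = 0.648), and Scarb1, the receptor that takes cholesteryl ester from high-density lipoprotein, by -0.13 ± 0.07 (adjusted p = 0.249).

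Of the 18 calls against C, 15 stood with any 1 array left out. Fdft1 lost its call without low C Wy (0.69), low C mock (0.74), high CR Wy (0.60) or high CR mock or high C mock (0.66 each), Nsdhl without low C Wy (0.57), high CR Wy (0.53) or high C mock (0.47) and Stard4 without low INT mock or high MF Wy (0.78 each), low C Wy (0.84), low C mock (0.86), high CR Wy (0.60), high CR mock (0.65), high C Wy (0.68) or high C mock (0.72). Some markers of other cells moved with the CR group and their part in these results was not tested. The erythroid Alas2, the 1 of 4 markers measured, had an intensity of 293 to 338 in CR and 692 to 940 in C livers (-1.34 ± 0.14), and 1 of 2 B cell markers tested fell (summed intensity of the list 73 to 97.2 in CR and 106 to 205 in C). In the list of monocyte-derived macrophages 1 of 5 fell (summed 261 to 328 in CR and 248 to 565 in C), as did 1 of 5 in the stellate cell list (4998 to 5759 in CR and 5103 to 6151 in C) and 1 of 2 tested in the exocrine pancreas list (80.9 to 91.7 in CR and 89.2 to 102 in C). The hepatocyte list summed to 40783 to 44735 in CR and 38516 to 42732 in C livers, with none of its 5 genes called.

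**Figure D3:**
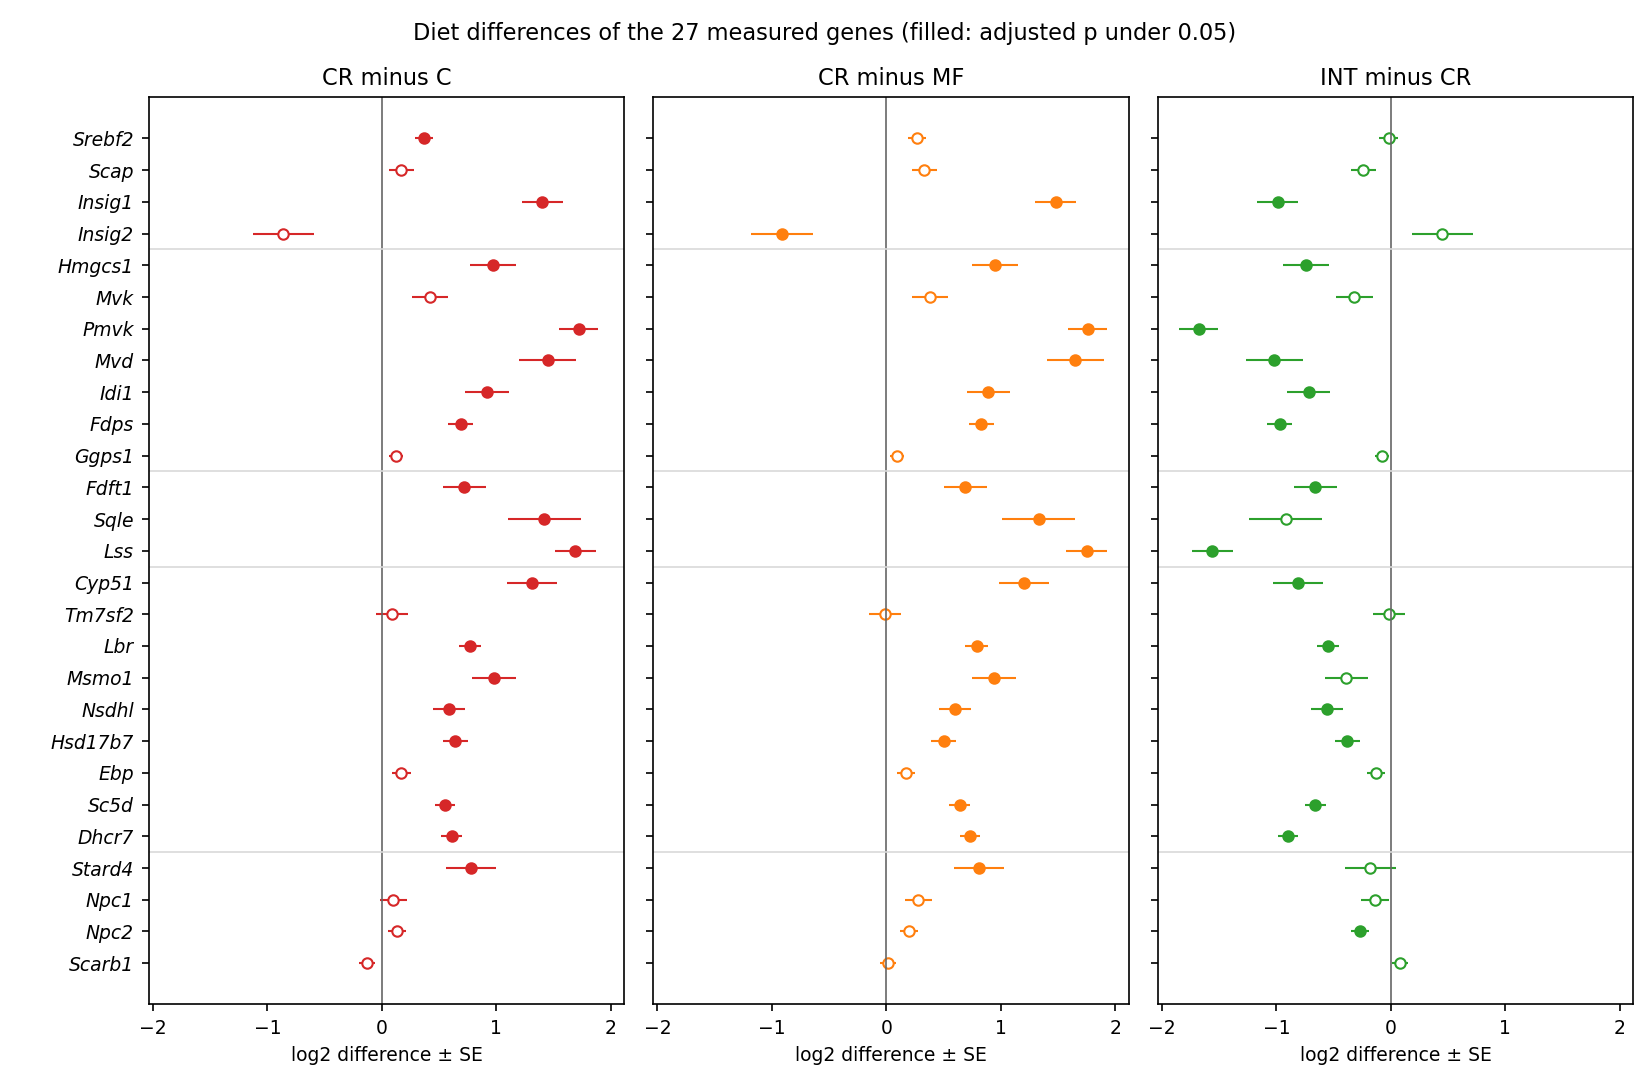
Log2 difference ± SE of the 27 genes (rows, in groups by role) for CR minus C, CR minus MF and INT minus CR, fitted over 16 arrays, with filled points for adjusted p under 0.05. Filled points lie to the right for CR minus C (18) and CR minus MF (17, with Insig2 filled to the left) and to the left for INT minus CR (15), and the 3 panels share the 4 CR arrays.

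Against the MF diet the same question gave 17 genes that rose in CR livers (5.79% of all genes) and 1 that fell (6.87%). This comparison uses the same 4 CR arrays as the one above, and each has its own values. The 8 largest rises were in Pmvk at 1.76 ± 0.17 (3.38-fold, adjusted p = 7.47e-05), Lss at 1.75, Mvd at 1.65, Insig1 at 1.48, Sqle at 1.33, Cyp51 at 1.20, Hmgcs1 at 0.95 and Msmo1 at 0.94. The median difference was 0.69 over the 27 genes and -0.01 over all genes. In 16 genes all CR arrays were above all MF arrays (5.08% of all genes), among them Scap, which differed by 0.33 ± 0.11 without a call (adjusted p = 0.0658). Srebf2 differed by 0.27 ± 0.08 (adjusted p = 0.0523).

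Insig2 was the gene that fell, to a mean of 11.01 ± 0.47 in CR livers, against 11.92 ± 1.04 in MF livers (SD, n = 4 each), a difference of -0.91 ± 0.27 (adjusted p = 0.0452). The groups overlapped, since the low MF mock liver, at 10.40, was below all CR livers. Insig2 lost its call without low INT Wy, low C Wy, low C mock, high INT Wy, high C Wy or high C mock (-0.91 each), low MF Wy (-0.72), high MF Wy (-0.96), high MF mock (-0.76), high CR Wy (-0.66) or high CR mock (-0.85). Fdft1 lost its call without low MF Wy (0.58), high MF Wy (0.74), high MF mock (0.71), high CR Wy (0.56) or high CR mock (0.63), Stard4 without low MF Wy (0.68), high MF Wy (0.81), high MF mock (0.72), high CR Wy (0.63) or high CR mock (0.69), Sqle without low MF Wy (1.10) or high CR Wy (1.22) and Nsdhl without low MF Wy (0.50) or high CR Wy (0.54). The other 13 calls stood with any 1 array left out. Of the markers of other cells, Alas2 fell again (-1.34 ± 0.14, intensity 293 to 338 in CR and 591 to 1051 in MF). Also 1 of 2 tested fell in the B cell list (summed 73 to 97.2 in CR and 110 to 164 in MF), 1 of 5 in the monocyte-derived macrophage list (261 to 328 in CR and 216 to 610 in MF), 1 of 5 in the stellate cell list (4998 to 5759 in CR and 5148 to 6310 in MF) and 1 of 2 in the exocrine pancreas list (80.9 to 91.7 in CR and 93.5 to 106 in MF). In the sinusoidal endothelium list 1 of 5 rose and 1 fell (4812 to 5273 in CR and 4687 to 5449 in MF), and 1 of 5 hepatocyte markers rose, Cps1 by 0.31 ± 0.08 (40783 to 44735 in CR and 38805 to 42852 in MF). Their part in the result was not tested.

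The 4 CR livers were also set against the 4 livers of low body weight C and MF mice. The classes are relative within a diet, and body weights were not used here, so weight was not matched. Here 17 genes rose (4.56% of all genes) and 0 fell (6.3%), with a median difference of 0.60, and in 14 all CR arrays were above all 4 of the others (5.71%). Pmvk rose by 1.62 ± 0.14 and Lss by 1.60 ± 0.12 (adjusted p = 9.68e-05 and 3.15e-05). The CR arrays and both low C arrays also stand in the comparison with C above. Srebf2 (0.28 ± 0.08, adjusted p = 0.059) and Stard4 (0.39 ± 0.16, adjusted p = 0.163) gave no call here, while Mvk rose (0.45 ± 0.09, adjusted p = 0.00812). Nsdhl lost its call without low C Wy (0.50). Among markers of other cells Alas2 fell by 1.57 ± 0.11 (intensity 293 to 338 in CR and 855 to 1051 in low body weight C and MF livers) and 1 of 2 B cell markers tested fell, Cd79b by 0.64 ± 0.13 (the list summed to 73 to 97.2 in CR and 106 to 164 in the others). In the monocyte-derived macrophage list 1 of 5 rose, Cd9 by 0.58 ± 0.11 (the list summed to 261 to 328 in CR and 216 to 258 in the others), whereas against C and against MF 1 of the 5, Cx3cr1, fell. Their part in the result was not tested.

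INT mice were restricted in alternate weeks and CR mice throughout, and the INT livers were taken in an unrestricted week. In INT livers 15 genes were lower than in CR livers (4.28% of all genes) and 0 were higher (5.57%), against 9.85% of all genes in either direction. The median difference was -0.55, against 0.01 over all genes. The 8 largest were Pmvk at -1.68 ± 0.17 (3.2-fold lower, adjusted p = 6.89e-05), Lss at -1.56 ± 0.18, Mvd at -1.02, Insig1 at -0.99, Fdps at -0.97, Dhcr7 at -0.90 (adjusted p = 5.5e-05), Cyp51 at -0.81 and Hmgcs1 at -0.74. In 10 genes every INT array was below every CR array (4.85% of all genes). Npc2 was among them, at 8.09 ± 0.06 in INT and 8.37 ± 0.10 in CR livers (-0.27 ± 0.08, adjusted p = 0.0391), a call lost with the pair as a random block (adjusted p = 0.0557) and with no body weight term (0.0695). With the random block Fdft1 (adjusted p = 0.0537) and Hsd17b7 (0.0528) also lost theirs.

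Some genes did not separate INT from CR livers. Srebf2 averaged 9.28 ± 0.22 in INT and 9.30 ± 0.11 in CR livers (-0.02 ± 0.08, adjusted p = 0.909). Stard4 averaged 8.92 ± 0.48 in INT and 9.10 ± 0.26 in CR livers (-0.18 ± 0.22, adjusted p = 0.675). Msmo1 differed by -0.39 ± 0.19 (adjusted p = 0.235) and Sqle by -0.92 ± 0.32 (adjusted p = 0.0892), both with wide INT groups in which the low body weight livers reached CR values.

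Within INT the values split by body weight class. The median deviation of the 27 genes was -0.26 and -0.18 on the high INT arrays and 0.04 and 0.05 on the low INT arrays. The CR arrays all carry the same code. They split in the opposite order, at 0.56 and 0.63 on the high and 0.30 and 0.45 on the low arrays. Fdft1 was at 11.78, 11.41, 11.88 and 11.74 in CR livers, 10.33, 11.47, 10.85 and 11.52 in INT livers, 10.93, 10.72, 11.10 and 11.31 in MF livers and 10.95, 10.86, 10.86 and 11.25 in C livers, so that both high INT livers were below all CR livers while both low INT livers lay inside the CR range. In an alternative chosen after seeing the data, INT minus CR gave 17 lower genes within high body weight mice (2.39% of all genes, median -0.78) and 5 within low body weight mice (1.46% of all genes, median -0.23), in Pmvk, Fdps, Lss, Sc5d and Dhcr7. The difference between the classes itself gave 0 calls in the 27 genes and 0 over all genes by limma. At an unadjusted p under 0.05 were 12 of the 27 (Fdft1 -1.16 ± 0.21, adjusted p = 0.275), a count not taken over all genes. Within INT, body weight class and array code cannot be told apart, while the difference between the classes draws on the CR livers as well. Without both arrays of the other code, INT minus CR gave 5 lower genes (1.49% of all genes) and a median of -0.24.

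Of the 15 INT minus CR calls, 7 stood with any 1 array left out (Insig1, Pmvk, Fdps, Lss, Lbr, Sc5d and Dhcr7). Of these, Insig1 (-0.82, limma adjusted p = 0.0998) and Lbr (-0.49, adjusted p = 0.0856) lost their calls without both arrays of the other code. They also lost them within low body weight mice (adjusted p = 0.192 and 0.159). Hmgcs1 lost its call without low CR mock (-0.78), high INT Wy (-0.67), high INT mock (-0.57), high CR Wy (-0.72) or high CR mock (-0.60), Mvd without high INT mock (-0.80), high CR Wy (-0.85) or high CR mock (-0.87) and Idi1 without low INT mock (-0.72), high INT Wy (-0.64), high INT mock (-0.60) or high CR Wy or high CR mock (-0.62 each). Cyp51 lost it without low INT mock (-0.72), low CR mock (-0.78), high INT Wy (-0.82), high INT mock (-0.71), high CR Wy (-0.74) or high CR mock (-0.69) and Nsdhl without low INT mock (-0.54), low CR mock (-0.56), high INT Wy (-0.48), high INT mock (-0.55), high CR Wy (-0.51) or high CR mock (-0.52). Fdft1 lost it without low MF mock, low C Wy, low C mock, high MF Wy, high MF mock, high C Wy or high C mock (-0.66 each), low CR mock (-0.73), high INT Wy (-0.46), high INT mock (-0.57), high CR Wy (-0.53) or high CR mock (-0.60). Hsd17b7 lost it without low MF Wy, low C Wy, low C mock, high MF Wy, high C Wy or high C mock (-0.38 each), high INT Wy (-0.34), high INT mock (-0.29), high CR Wy (-0.36) or high CR mock (-0.27), and Npc2 without low INT Wy (-0.30), low INT mock (-0.28), low CR Wy, low C Wy, high INT Wy or high C Wy (-0.27 each), low CR mock or high CR Wy (-0.24 each) or high INT mock (-0.25). The count of calls was 7 without high CR Wy or high INT mock and 8 without high CR mock or high INT Wy. Alas2 had an intensity of 727 to 1028 in INT and 293 to 338 in CR livers (1.45 ± 0.14), 1 of 2 B cell markers tested rose (summed 111 to 168 in INT and 73 to 97.2 in CR) and 1 of 2 in the exocrine pancreas list (92.4 to 109 in INT and 80.9 to 91.7 in CR). In the monocyte-derived macrophage list 1 of 5 fell (229 to 263 in INT and 261 to 328 in CR), as did 1 of 5 hepatocyte markers, Cps1 by 0.26 ± 0.08 (40592 to 42478 in INT and 40783 to 44735 in CR). Their part in the result was not tested.

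INT livers gave no call against either ad libitum diet. Against C, 0 of 27 genes passed the limma test (0.00701% of all genes). An unadjusted p under 0.05 was reached by 9 of them, and by 1405 of all 14275 genes. Srebf2 was nearest, at 0.35 ± 0.08 (adjusted p = 0.196, higher in 4 of 4 matched livers), followed by Dhcr7 at -0.29 ± 0.09 (adjusted p = 0.338, lower in 4 of 4) and Msmo1 at 0.59 ± 0.19 (adjusted p = 0.371, higher in 4 of 4). Against MF, 0 genes passed (0% of all genes) and 6 had an unadjusted p under 0.05 (1629 of all 14275 genes). Srebf2 differed by 0.24 ± 0.08, Msmo1 by 0.55 ± 0.19 and Stard4 by 0.63 ± 0.22 (adjusted p = 0.373, 0.373 and 0.378). The medians of the 27 differences were 0.07 against C and 0.10 against MF, and 0.29 and 0.31 without the arrays of the other code.

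MF against C livers likewise gave no call. No gene passed the limma test (0 of 27, and 0% of all genes). An unadjusted p under 0.05 was reached by 0 of 27, and by 628 of all 14275 genes. The smallest p-values were those of Scarb1 at -0.14 ± 0.07, Npc1 at -0.17 ± 0.12 and Scap at -0.16 ± 0.11 (adjusted p = 1 each), and the median difference was -0.01.

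Body weight class was read within diet. Over all 4 diets 0 of 27 genes differed between high and low body weight livers (0% of all genes). An unadjusted p under 0.05 was reached by 7 of them, and by 2000 of all 14275 genes. The 7 were led by Stard4 at -0.52 ± 0.16 (adjusted p = 0.209), Insig2 at 0.60 ± 0.19 (adjusted p = 0.223) and Msmo1 at -0.39 ± 0.14 (adjusted p = 0.252). In C and MF mice 1 gene fell in heavy mice (2.72% of all genes) and 0 rose (4.67%).

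That gene was Stard4, which fell by 0.81 ± 0.16 in high body weight C and MF livers (adjusted p = 0.0155), to a mean of 7.90 ± 0.34, against 8.72 ± 0.67 in low body weight livers (SD, n = 4 each). Its values, listed above, were lower in 4 of 4 heavy livers than in the light liver of the same diet and treatment, although the groups overlapped. Insig2 differed by 0.76 ± 0.23 (adjusted p = 0.075) and Msmo1 by -0.37 ± 0.11 (adjusted p = 0.0685), each in the same direction in 4 of 4 matched livers before rounding. For Insig2 the high and the low MF Wy liver were both at 12.60. The Stard4 call was lost without low C Wy (-0.82), low C mock (-0.80), high MF mock (-0.75), high C Wy (-0.78) or high C mock (-0.84). Without high MF Wy the comparison gave 2 calls, and without low MF Wy 3. Ebp was the 1 gene in which all heavy livers were below all light ones (4.09% of all genes), at 10.75 ± 0.03 and 10.97 ± 0.07, without a call (-0.22 ± 0.07, adjusted p = 0.0921). Markers of monocyte-derived macrophages moved with weight in these diets. Of the 5, 3 rose (Ccr2, Itgax and Gpnmb), the list summing to 333 to 610 in heavy and 216 to 258 in light livers. In the sinusoidal endothelium list 1 of 5 rose (4785 to 5449 in heavy and 4527 to 4762 in light livers), in the Kupffer cell list 1 of 5 fell (2784 to 4070 in heavy and 2686 to 3062 in light), Alas2 fell by 0.45 ± 0.11, and Cps1 fell by 0.28 ± 0.06, the hepatocyte list summing to 38516 to 40343 in heavy and 40318 to 42852 in light livers. Their part in the result was not tested.

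In CR and INT mice 0 of 27 genes differed by body weight class (0% of all genes). By limma 3 had an unadjusted p under 0.05, against 679 of all 14275 genes. These were Msmo1 at -0.40 ± 0.11, Fdft1 at -0.32 ± 0.11 and Mvk at -0.21 ± 0.09 (adjusted p = 0.968 each). The difference between the weight effects in C and MF and in CR and INT gave 0 calls (0.855% of all genes). At an unadjusted p under 0.05 it gave 2, against 2012 of all 14275 genes. The 2 were Stard4 at -0.59 ± 0.23 (adjusted p = 0.263) and Mvk at 0.32 ± 0.12 (adjusted p = 0.264). Tm7sf2 came next, at -0.35 ± 0.17 (adjusted p = 0.395). Without low MF Wy 1 gene was called in this difference.

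Under the PPARα agonist, 6 h after the dose, 4 of the 27 genes rose, a share near that of all genes (12.3%), and 9 fell (16% of all genes). Insig2 and Hsd17b7 rose most, and Stard4 and Insig1 fell most. The median difference was -0.13 over the 27 genes and -0.01 over all genes. An unadjusted p under 0.05 was reached by 19 of the 27, and by 5518 of all 14275 genes. In 3 genes all 8 pairs were higher under Wy before rounding (8.82% of all genes), namely Insig2, Hsd17b7 and Hmgcs1, the last at 0.00 in its smallest pair, and in 4 all 8 were lower (10.9%), both near the shares over all genes.

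Insig2, whose values are given above, was higher in the Wy liver of every pair. The pair differences were 0.54 and 0.99 in CR, 0.80 and 1.49 in INT, 0.54 and 2.20 in MF and 0.58 and 1.08 in C, with the high body weight pair first in each diet. The fitted rise was 1.03 ± 0.17 (2.04-fold, adjusted p = 0.000803), and Wy and mock livers overlapped across diets. Hsd17b7 was at 12.05, 11.84, 11.57 and 11.21 in CR livers, 11.51, 11.85, 10.68 and 11.10 in INT livers, 11.58, 11.49, 10.70 and 10.89 in MF livers and 11.38, 11.38, 10.63 and 10.72 in C livers. The 8 pair differences lay between 0.48 and 0.88 and gave a rise of 0.70 ± 0.05 (1.62-fold, adjusted p = 4.77e-06).

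A further pair of synthesis genes was called upward. Hmgcs1 rose by 0.41 ± 0.11 (adjusted p = 0.0142), with pair differences of 0.00 to 1.05, and Dhcr7 by 0.21 ± 0.06 (adjusted p = 0.0152), higher in 7 of 8 pairs. Srebf2 was higher in 7 of 8 pairs but gave no call (0.15 ± 0.06, adjusted p = 0.0782).

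Insig1 and Stard4, both known SREBP2 targets, were lower under Wy in 8 of 8 pairs. The pair differences of Insig1 were -0.18 and -0.45 in CR, -0.46 and -0.61 in INT, -0.34 and -1.43 in MF and -0.45 and -0.55 in C, and the fit gave -0.56 ± 0.11 (adjusted p = 0.00309). Those of Stard4 were -0.48 and -0.25 in CR, -0.53 and -0.42 in INT, -0.39 and -1.50 in MF and -0.72 and -0.66 in C, for -0.62 ± 0.11 (1.54-fold lower, adjusted p = 0.00193). In both, the low MF pair fell furthest. Msmo1 fell by 0.41 ± 0.08 (adjusted p = 0.00251), in 8 of 8 pairs, by between 0.08 and 0.92.

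Scarb1 was, before rounding, the only gene of the 27 in which all 8 Wy livers were below all 8 mock livers, a pattern found in 2.07% of all genes. None had all Wy above all mock livers (0 of 27, 2.78% of all genes). In Scarb1 the highest Wy and the lowest mock liver were both at 10.61. It was at 10.58, 10.37, 10.62 and 10.75 in CR livers, 10.56, 10.53, 10.71 and 10.84 in INT livers, 10.35, 10.60, 10.61 and 10.72 in MF livers and 10.59, 10.61, 10.75 and 10.91 in C livers, averaging 10.52 ± 0.11 under Wy and 10.74 ± 0.10 in mock livers (SD, n = 8 each; -0.21 ± 0.05, adjusted p = 0.00668). The lysosomal exporter Npc1 fell by 0.34 ± 0.08, in 7 of 8 pairs. Sc5d fell by 0.24 ± 0.06, Mvk by 0.23 ± 0.06, Lbr by 0.23 ± 0.06 and Fdft1 by 0.26 ± 0.08, each in 7 of 8 pairs.

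**Figure D4:**
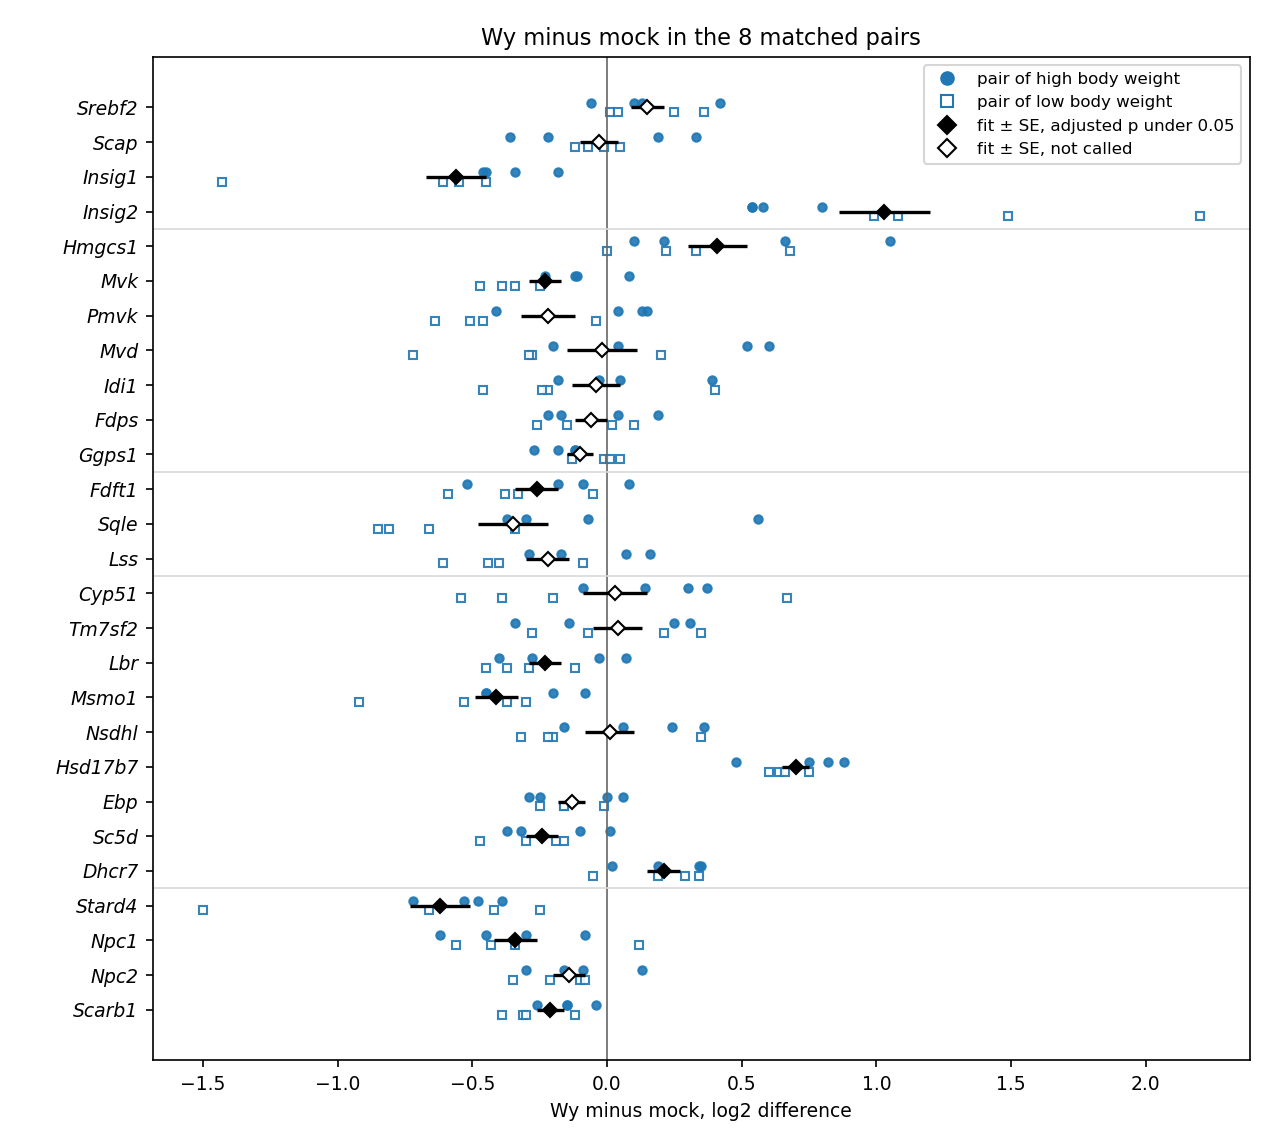
Wy minus mock log2 difference of each of the 27 genes (rows, in groups by role) in the 8 matched pairs, circles for high and squares for low body weight pairs, with the fit ± SE as a diamond, filled for adjusted p under 0.05. Insig2 and Hsd17b7 lie to the right of 0 in all 8 pairs, Insig1, Msmo1, Stard4 and Scarb1 to the left in all 8, and the low MF pair of Insig1 and Stard4 stands off at -1.43 and -1.50.

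The 14 genes without a call included Lss (-0.22 ± 0.08, adjusted p = 0.0653), Sqle (-0.35 ± 0.13, adjusted p = 0.0711) and Pmvk (-0.22 ± 0.10, adjusted p = 0.118), and Cyp51, Nsdhl, Mvd, Tm7sf2, Idi1, Fdps and Scap had differences between -0.06 and 0.04. Of the 18 genes higher in CR than in C livers, a comparison made on the same arrays, 6 fell under Wy (Insig1, Stard4, Msmo1, Fdft1, Sc5d and Lbr), 3 rose (Hsd17b7, Hmgcs1 and Dhcr7) and 9 were not called. Over all genes tested 16% fell and 12.3% rose under Wy, and the shares among all genes higher in CR livers were not taken. With 1 array left out, 12 of the 13 Wy calls stood. Fdft1 lost its call without low MF Wy or low MF mock (-0.21 each), low CR Wy or low CR mock (-0.25 each), low C Wy or low C mock (-0.24 each) or high INT Wy or high INT mock (-0.22 each), the loss of either array taking its pair out of the fit. Among hepatocyte markers 1 of 5 fell under Wy, Cps1 by 0.32 ± 0.04, with the list summing to 38516 to 41526 in Wy and 39624 to 44735 in mock livers, and 1 of 2 adipocyte markers tested rose, Plin1 by 0.16 ± 0.05, with the list summing to 88.4 to 103 in Wy and 87.3 to 97.9 in mock livers (Adipoq and Lep were too low to test). Their part in the result was not tested.

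Whether the Wy response depended on body weight or diet was tested on the difference itself. Between high and low body weight pairs 0 of 27 genes differed (0% of all genes). By limma 6 were at an unadjusted p under 0.05, against 673 of all 14275 genes. The Wy effect in high minus that in low body weight pairs was -0.82 ± 0.23 for Insig2, 0.62 ± 0.20 for Sqle and 0.27 ± 0.10 for Mvk (adjusted p = 0.999 each). Across the 4 diets 0 of 27 passed the F test (0% of all genes) and 1 had an unadjusted p under 0.05 (669 of all 14275). Npc1, Cyp51 and Dhcr7 had the smallest p-values (adjusted p = 0.997 each). By pair, the median Wy difference of the 27 genes was -0.09 in high CR, -0.21 in low CR, -0.11 in high INT, -0.05 in low INT, -0.03 in high MF, -0.26 in low MF, 0.08 in high C and -0.30 in low C.

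Other genes of the pathway came from 9 lists, with 60 of their 72 entries tested. Their counts under Wy stand against 12.3% of all genes higher and 16% lower. For CR minus C these shares were 4.54% higher and 5.98% lower. For CR minus MF they were 5.79% and 6.87%, and for INT minus CR 5.57% and 4.28%. Among 11 further SREBP targets, mostly of fatty acid synthesis, 6 rose in CR over C livers and 0 fell, with Acly (ATP citrate lyase, which makes cytosolic acetyl-CoA) at 1.87 ± 0.20, Fasn (fatty acid synthase) at 0.99 ± 0.11 and Elovl6 (a fatty acid elongase) at 0.95 ± 0.15. Against MF 7 rose, and in INT livers 7 were lower than in CR livers (Fasn -1.55 ± 0.11, Acly -2.50 ± 0.20, Elovl6 -1.63 ± 0.15). Under Wy 1 of the 11 fell, the cobalamin enzyme gene Mmab by 0.46 ± 0.08, and 0 rose. Of 12 genes of SREBP processing and sterol sensing, 1 was called in CR against C, the NF-Y subunit Nfya, at -0.35 ± 0.10. Under Wy 2 rose and 3 fell, with Erlin1 (an endoplasmic reticulum protein that binds SREBP complexes) at -0.39 ± 0.06, the ubiquitin ligase Rnf139 at -0.20 ± 0.05 and the NF-Y subunit Nfyb at -0.40 ± 0.11.

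Further lists covered what is made from cholesterol and where it goes. Under Wy, Cyp7a1, which sets the rate of bile acid formation, fell by 2.80 ± 0.38 and Cyp27a1 by 0.17 ± 0.05. They were 2 of 4 genes tested in the list of oxysterol and bile acid entry enzymes. Cyp7b1, the oxysterol hydroxylase, fell by 1.25 ± 0.27 in CR against C livers and was 2.12 ± 0.27 higher in INT than in CR livers. Nceh1, a cholesteryl ester hydrolase, rose by 0.86 ± 0.09 under Wy, 1 of 3 genes of esterification and hydrolysis. Of 7 genes of LXR targets and efflux, the phospholipid remodelling enzyme Lpcat3 (0.40 ± 0.05) and the exporter Abca1 (0.24 ± 0.07) rose under Wy and the biliary sterol exporter Abcg5 fell by 0.30 ± 0.07, while 0 were called in CR against C.

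Of 9 genes of the isoprenoid branches, 2 rose and 1 fell under Wy, among them Rabggtb, a subunit of the enzyme that prenylates Rab proteins, at 0.34 ± 0.05, and 0 were called in CR against C. Of 3 genes of the ketone branch, Acat1, the mitochondrial acetoacetyl-CoA thiolase, rose by 0.16 ± 0.05 under Wy. Of 3 genes that supply electrons to sterol enzymes, Cyb5b rose by 0.28 ± 0.07 in CR over C livers and 0 were called under Wy. Of 8 other sterol carriers, 3 fell under Wy, among them Gramd1a by 0.33 ± 0.05, and Scp2, sterol carrier protein, fell by 0.39 ± 0.06 in CR against C livers.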

How the data were processed

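Whole-liver RNA of 16 mice was hybridised, 1 mouse per array, to Affymetrix Mouse Gene 1.1 ST arrays. The table deposited by the authors holds log2 values from RMA (version not given in the sources used), which corrects background, brings all arrays to 1 distribution and summarises probes. They ran between 1.84 and 13.7. Because quantile scaling forces the arrays to alike totals, a shift of all genes would not be seen. Of 35556 transcript clusters, 21218 were annotated to 1 gene, 1881 to several and 12457 to none in the annotation used. The cluster of highest mean stood for each of 18820 genes (1386 had over 1 cluster), and 14275 genes with an intensity over 20 (log2 4.32) on at least 5 arrays were tested, 4545 being left out.

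Groups came from the labels. Differences were fitted across all genes tested with limma 3.58.1 (R 4.3.3, statmod 1.5.0), lmFit and eBayes, with Benjamini-Hochberg adjustment over all 14275 genes, and calls at adjusted p under 0.05. The fit of Wy minus mock held the 8 matched pairs as blocks, that of the diets held terms for treatment and weight class, and body weight was fitted within diets beside treatment. Tables and figures were made with pandas 2.3.3, numpy 2.4.6 and matplotlib 3.10.9. Alternatives were no filter on low values, each array centred on its median, a trended and robust variance and the mean of all clusters. Others were no body weight term, single treatments, no array of the other code, no pair block for Wy, the pair as a random block, and each array left out.

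The labels pair a Wy with a mock mouse of the same diet and body weight class. The deviations of paired arrays correlated at -0.169 in CR, 0.0839 in INT, 0.564 in MF and 0.531 in C. The p-values measure the spread between these mice. On simulated data for Wy minus mock, 90% of genes changed by 0.5 and 99% of those changed by 1 on the log2 scale were recovered, with 7 false calls. For CR minus C these were 71% and 95%, with 12 false calls (100 genes of each size among 14275). The simulated noise was independent between arrays and held no pair effect, and the CR minus C simulation held no other diet difference. In the data 28.3% of genes were called under Wy, so these rates do not give the power of the fits above.

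The 27 genes and the lists were chosen with earlier results of these data known. Named were the regulators, the pair of genes with the largest CR minus C difference in each other role, genes called under Wy or by body weight (up to 6, by p), called genes of each comparison (up to 8 per direction, by size) and, where none was called, the 3 with the smallest p. Values of the remaining genes are given where they complete a role. Promoter windows were read from RefSeq (GRCm38.p6), and no window was held for Fdps, Fdft1, Sqle, Scarb1, Stard4 and Npc1.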

Additional observations from a re-analysis of the deposited data

Results flagged for a closer look

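In 5 of 135 groups of 4 to 8 values, 1 value stood apart from the rest by Dixon's criterion, where chance gives about 1 group in 20. Srebf2 in the 4 INT livers was at 8.95 in the high INT mock liver and at 9.37 to 9.39 in the other 3 (gap over range 0.956). Cyp51 in the 4 CR livers was at 10.06 in the low CR Wy liver and at 10.61 to 10.70 in the other 3 (0.852). Ggps1 in the 4 MF livers was at 7.47 in the high MF mock liver and at 7.35 to 7.36 in the other 3 (0.94). Among the 8 Wy minus mock pairs, the low MF pair stood apart for Insig1, at -1.43 against -0.61 to -0.18 in the others (0.658), and for Stard4, at -1.50 against -0.72 to -0.25 (0.624).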

How the results depend on the processing

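Stability was counted for 67 differences only, those of the largest calls or, in comparisons without a call, of the smallest p-values. Recomputed under the alternatives, 1486 of their values kept their direction and side of the threshold, uncalled genes included. Of the rest, 84 lost the call, 1 gained it and 0 changed direction. Smaller calls were not counted, although some were lost with 1 array left out. Among these were Fdft1, Nsdhl and Stard4 in CR minus C and in CR minus MF. In INT minus CR they included Idi1, Fdft1, Nsdhl, Hsd17b7 and Npc2. Within mock livers there were 6 calls for CR minus C, 7 for CR minus MF and 5 for INT minus CR, and within Wy livers 4, 7 and 5. Each such fit set 2 arrays against 2, with the spread from all 16, and 0.602% to 1.32% of all genes were called in the same direction. INT minus CR gave 5 calls (median -0.24) without both arrays of the other code and, in an alternative chosen after seeing the data, 5 within low body weight mice (median -0.23) and a median of -0.78 within high body weight mice. Without the other code the medians of INT minus C and INT minus MF were 0.29 and 0.31.

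Leaving out each array in turn gave 12 to 16 calls for Wy minus mock, 15 to 19 for CR minus C, 13 to 19 for CR minus MF, 7 to 14 for INT minus CR, 16 to 20 for CR against low body weight C and MF mice, 0 to 3 for body weight in C and MF, 0 to 1 for the difference of the body weight effects, and 0 for the other comparisons.

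Without the pair as a replicate block Wy minus mock gave 11 calls (4 higher, 7 lower), Fdft1 and Mvk losing theirs. With the pair as a random block (estimated correlation 0.0741) CR minus C gave 17 calls (Stard4 lost), CR minus MF 17 (Insig2 lost) and INT minus CR 12 (Fdft1, Hsd17b7 and Npc2 lost). Of all genes, 3.67% were called higher in CR minus C, 4.83% higher in CR minus MF and 3.54% lower in INT minus CR.
The CR minus MF call of Insig2 was also lost with no filter, with a trended and robust variance, with no body weight term and without the arrays of the other code.

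With 2 mice per diet and treatment, differences that missed the threshold are not shown to be absent, and intensity has no true zero, so folds of dim genes are compressed.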
